A study of Mus musculus with 4 samples.

Results

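S100a8, S100a9, Lcn2, Lrg1, Wfdc21, Slpi, Saa3 and Hp encode alarmins and secreted antimicrobial or acute phase proteins of myeloid cells. These 8 genes, of the 32285 features counted, were followed by cell class through single-cell RNA libraries of mouse liver leukocytes. They were picked by symbol with their levels in these libraries already known, so their levels and ratios are a description and no test was made of them. All mice carried the IL-22sgBFP genotype, a reporter in which blue fluorescence marks expression of the cytokine gene Il22. CD45-positive leukocytes of the liver were sorted into a reporter-negative (IL-22-BFP-negative) and a reporter-positive (IL-22-BFP-positive) fraction, named IL-22-negative and IL-22-positive in the plots, either before any injection (0 h) or 12 h after MC38 cells, a mouse colon carcinoma line, had been given into the spleen. Each of the 4 groups was 1 library, so there were no replicates and every ratio compares 2 libraries. Age, sex and the number of mice behind a library were not stated, and no library followed an injection without cancer cells, so the surgery and the arrival of the cells cannot be told apart.

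S100a8 and S100a9 form calprotectin, a calcium-binding and metal-binding complex that neutrophils hold in their cytosol in large amounts and that acts on Toll-like receptor 4 once released. Lcn2 (lipocalin-2) binds bacterial siderophores, Slpi and Wfdc21 are small secreted proteins of the WAP-domain family, of which Slpi inhibits neutrophil serine proteases, and Saa3, Hp (haptoglobin) and Lrg1 belong to the acute phase response. In the liver, hepatocytes are the best known source of acute phase proteins, while neutrophils and monocytes carry transcripts of several of these genes themselves. Classical (Ly6C-high) monocytes enter inflamed tissue from the blood, and patrolling (Ly6C-low) monocytes survey the vessel wall.

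Cells were clustered without the 8 genes, and clusters were named from marker lists that hold none of them, with "-like" marking such a name. After filtering, 8051 cells at 0 h and 9862 cells at 12 h remained in the reporter-negative libraries, and 289 and 1341 in the reporter-positive ones. Median depth ran from 1801 to 3707 UMIs (unique molecular identifiers, each marking 1 captured transcript) per cell across the 4 libraries, and between 65.1% and 92.07% of cells received a name. Neutrophil-like cells numbered 9 at 0 h and 52 at 12 h among reporter-negative cells, and 1 and 22 among reporter-positive cells. Classical-monocyte-like cells numbered 109, 434, 28 and 438 in the same order, patrolling-monocyte-like cells 25, 39, 81 and 203, and lymphocytes (T-cell-like, B-cell-like and NK-or-ILC1-like cells together) 6685, 7669, 81 and 78. The share of each class in the reporter-positive fraction was set by the sort. The neutrophil-like cells of both reporter-negative libraries held UMIs of all 12 neutrophil markers, and the classical-monocyte-like cells of all 4 libraries held all 10 classical markers. The patrolling-monocyte-like class was less clear: its 12 patrolling markers summed to between 3482 and 5222 CPM (the UMIs of a gene per 1000000 UMIs of a summed class), while the 10 classical markers summed to between 4009 and 7740 CPM in the same cells. The libraries shared between 0 and 105 cell barcodes pair by pair, at most 1.73% of the smaller library.

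In GRCm38 coordinates, S100a8 (chr3:90668978-90670035, plus strand) and S100a9 (chr3:90692632-90695721, minus strand) lie 22596 bases apart. Lcn2 is at chr2:32384633-32388252 and Slpi at chr2:164354070-164389095, both on the minus strand. The other loci are Lrg1 (chr17:56119678-56122001, minus), Wfdc21 (chr11:83746940-83752642, plus), Saa3 (chr7:46711998-46715700, minus) and Hp (chr8:109575128-109579172, minus). Of the 8 genes, 6 have a promoter in the RefSeq table used here (build GRCm38.p6), and Wfdc21 and Hp do not. The 250 bases before the RefSeq start of S100a8, S100a9, Lcn2 and Saa3 are shown because S100a8 and S100a9 are neighbours whose levels separate below, and because Lcn2 was higher in neutrophil-like and Saa3 in classical-monocyte-like cells. Each is written 5′ to 3′ on the strand of its gene, at chr3:90668821-90669070 (plus), chr3:90695722-90695971 (minus), chr2:32387740-32387989 (minus) and chr7:46715677-46715926 (minus) in that order. Capitals mark GCAAT or its reverse complement ATTGC, letters found within the palindromic site of C/EBP transcription factors, which drive myeloid and acute phase genes.
S100a8: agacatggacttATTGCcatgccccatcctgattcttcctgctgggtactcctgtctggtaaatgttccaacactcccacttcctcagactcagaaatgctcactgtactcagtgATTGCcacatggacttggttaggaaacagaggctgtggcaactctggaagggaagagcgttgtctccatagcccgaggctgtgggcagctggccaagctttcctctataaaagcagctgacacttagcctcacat
S100a9: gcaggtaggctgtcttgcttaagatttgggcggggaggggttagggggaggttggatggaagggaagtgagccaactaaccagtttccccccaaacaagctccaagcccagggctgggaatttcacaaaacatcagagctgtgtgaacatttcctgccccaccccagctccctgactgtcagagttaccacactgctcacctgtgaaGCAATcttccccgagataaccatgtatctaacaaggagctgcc
Lcn2: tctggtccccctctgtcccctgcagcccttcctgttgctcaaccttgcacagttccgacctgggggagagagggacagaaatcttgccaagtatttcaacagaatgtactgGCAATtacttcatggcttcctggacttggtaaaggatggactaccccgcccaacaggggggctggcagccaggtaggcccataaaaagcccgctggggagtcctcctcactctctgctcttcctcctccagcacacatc
Saa3: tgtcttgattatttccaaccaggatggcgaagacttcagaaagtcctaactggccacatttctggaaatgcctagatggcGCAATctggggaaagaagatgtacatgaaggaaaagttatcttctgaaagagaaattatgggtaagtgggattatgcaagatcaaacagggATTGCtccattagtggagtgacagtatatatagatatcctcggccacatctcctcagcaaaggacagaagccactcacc

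Searched on both strands, GCAAT was found in 6 of these 6 promoters, against 23.08% of the 32851 promoters of the table, and 2 or more matches were found in 4 of the 6 (S100a8, Lrg1, Slpi and Saa3), against 3.945% of all. The match of S100a9 lies 43 bases before the start and that of Lcn2 139 bases before it, while those of S100a8 begin 238 and 135 bases and those of Saa3 170 and 79 bases before it. The letters of an NF-kappaB site (GGG and CC with any 5 bases between them, which can overlap a GCAAT) were found in 2 of the 6 (Lcn2, 102 bases before the start, and Lrg1, 34 bases before it), against 45.8% of all promoters. The letters of a STAT site (TTC and GAA with any 3 bases between them) were found in 0 of 6, against 7.02%. All 3 motifs were chosen with the promoters already read, and a match is a string of letters and no measure of binding.

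Among neutrophil-like cells, both monocyte classes and lymphocytes, the neutrophil-like cells carried the highest levels of 7 of the 8 genes, and S100a8 and S100a9 were the bulk of it. S100a8 stood at 117479 CPM (95% Poisson interval 112001 to 123155) in the 9 reporter-negative cells of 0 h, at 102558 CPM (100785 to 104353) in the 52 cells of 12 h, at 209280 CPM in the 1 reporter-positive cell of 0 h and at 161655 CPM (157491 to 165902) in the 22 cells of 12 h. S100a9 followed at 131636, 114895, 248000 and 182248 CPM. Each gene thus took more than 10% of the UMIs of the neutrophil-like cells of every library. The UMIs of S100a8 per UMI of S100a9 in these cells were nearly the same, at 0.893, 0.893, 0.844 and 0.887. Intervals of this kind cover counting error only, and in a 3' UMI assay a level is per captured molecule and does not scale with transcript length. Taken cell by cell, the 8 genes made up a median of 16.8% of all UMIs (range 0.961% to 39.6%) in the reporter-negative neutrophil-like cells of 0 h, 26.4% (0.630% to 48.7%) in those of 12 h and 33.7% (3.35% to 51.3%) in the reporter-positive ones of 12 h.

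Of the secreted proteins, Lcn2 was the next highest in neutrophil-like cells at 7283, 9088, 18880 and 11315 CPM in the same order of libraries. The WAP-domain gene Wfdc21 stood at 3199, 4037, 4160 and 7750 CPM, and Slpi, the protease inhibitor, at 4901, 3265, 1600 and 2744 CPM. Haptoglobin (Hp), which captures free haemoglobin and is stored in neutrophil granules, stood at 2995, 2397, 1600 and 2037 CPM. Lrg1, a leucine-rich glycoprotein, was lowest of the detected 7 at 749, 2019, 960.0 and 1952 CPM. Saa3 was all but absent from these cells, with 1 UMI in 52 cells at 12 h in the reporter-negative library (8.04 CPM) and none in the other 3. The median neutrophil-like cell held UMIs of 6 of the 8 genes at 0 h and of 7 at 12 h in the reporter-negative libraries. The plot of levels by class shows the neutrophil-like cells at the top of every panel except that of Saa3.

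**Figure D1:**
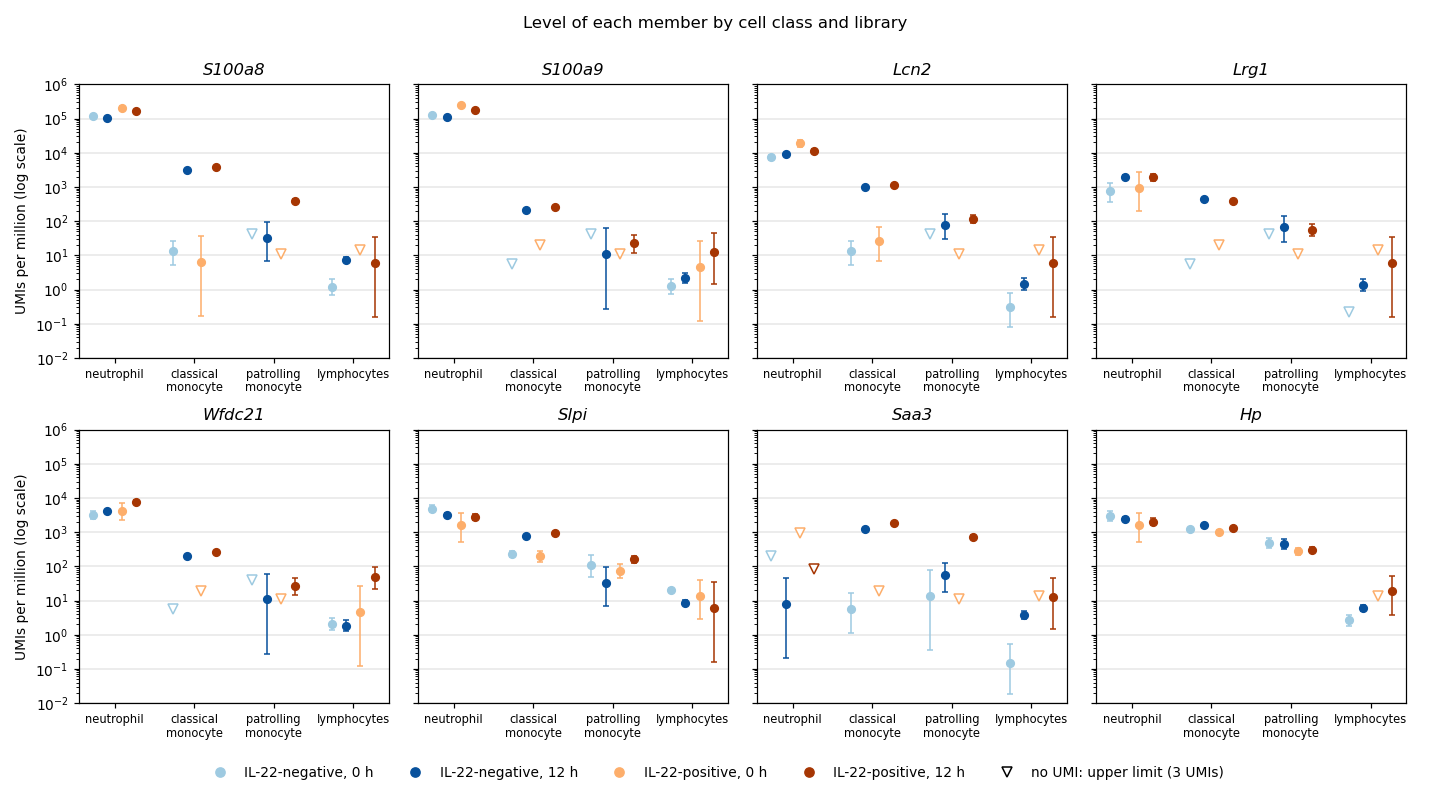
Level of each of the 8 genes (CPM, log axis) in neutrophil-like, classical-monocyte-like, patrolling-monocyte-like cells and lymphocytes, 1 point per library with its 95% Poisson interval; open triangles mark sums of 0, drawn at the level of 3 UMIs. S100a8 and S100a9 lie highest in all 4 neutrophil-like sums, and the 12 h points of classical-monocyte-like cells lie far above their 0 h points for every gene but Slpi and Hp, where the gap is smaller.

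Between 0 h and 12 h, 1 of the 8 genes passed 2-fold in the summed neutrophil-like cells, and several ratios moved with the setting. A gene was called higher or lower where its CPM differed by at least 2-fold, the exact 95% counting interval of the ratio left out 1 and both sums together held at least 20 UMIs. By that rule 1 of the 7 detected genes, Lrg1, was higher at 12 h in the reporter-negative library (2.70-fold, 1.48 to 5.47, from 11 and 251 UMIs), where 9.03% of all genes measured in these cells were higher and 4.32% lower. With every cell thinned to 1000 UMIs the ratio of Lrg1 was 1.68, below 2-fold. S100a8 and S100a9 stood at 0.873 times their 0 h level (0.830 to 0.919 and 0.832 to 0.916), Lcn2 at 1.25 times, Wfdc21 at 1.26 times, Hp at 0.8003 times and Slpi at 0.666 times. Under the 12 other settings Lcn2 lay between 0.742 and 1.95, Hp between 0.598 and 1.11 and Slpi between 0.473 (thinned, beyond 2-fold) and 1.19 (resolution 0.5). Wfdc21 passed 2-fold as a mean over cells (2.48) and thinned (3.09). These ratios rest on few cells: a single cell held 40.0% of the S100a8 UMIs and 39.7% of the S100a9 UMIs of 0 h, and without the top cell of each sum the S100a8 ratio was 1.06 and the S100a9 ratio 1.05. The 8 genes together stood at 0.888 times (0.859 to 0.919) their 0 h level as a sum, and at 1.36 times as a mean over cells, so the direction depends on the weighting. At 12 h, reporter-positive neutrophil-like cells had 1.58 times the S100a8 (1.53 to 1.63), 1.59 times the S100a9 (1.54 to 1.63) and 1.92 times the Wfdc21 level (1.65 to 2.23) of reporter-negative ones. Here 0 of 7 genes passed 2-fold, where 3.13% of genes were higher and 18.9% lower. A single cell held 21.1% of the S100a9 UMIs of the 22 reporter-positive cells. The median reporter-positive cell gave 13.4% of its UMIs to S100a8 and 18.4% to S100a9, against 10.3% and 13.1% in reporter-negative cells. Median depths were 995.5 and 1846.5 UMIs per cell. The counting intervals leave out this spread between cells. The ratios between fractions in neutrophil-like cells were not run with other filters, resolutions or thinning. T-cell and B-cell markers summed to 1174 and 716 CPM in the reporter-negative neutrophil-like cells of 12 h, against 272 and 204 CPM at 0 h and 283 and 0 CPM in the reporter-positive cells of 12 h. Their part in these ratios was not tested.

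Of 18 genes listed as granule and antimicrobial proteins, 10 could be measured in the reporter-negative neutrophil-like cells, and 0 were called higher and 6 lower, beside the 9.03% and 4.32% of all genes measured in these cells. The other 4 (Pglyrp1, Chil1, Cd177 and Mmp8) had ratios of 0.952, 3.43, 2.48 and 1.65 without passing the rule. Camp, the cathelicidin precursor, stood at 21236 CPM at 0 h and 6241 CPM at 12 h (0.294-fold, 0.257 to 0.336). Ngp, neutrophilic granule protein, went from 45195 to 9900 CPM (0.219-fold), Ltf, lactoferrin, from 2859 to 635 CPM (0.222-fold), Lyz2, lysozyme, from 10550 to 1826 CPM (0.173-fold), and Cybb, a subunit of the NADPH oxidase, from 1089 to 338 CPM (0.310-fold). The 0 h levels came from 2 to 5 of the 9 cells. Those of 12 h came from 7 of 52 cells for Camp, 16 for Ngp, 4 for Ltf, 43 for Lyz2 and 6 for Cybb. Without the cell that held most UMIs of each gene in each sum, the ratios of these 5 genes lay between 0.239 and 0.357. They were not run with other filters, resolutions or thinning. Wfdc17, a WAP-domain gene like Wfdc21 and Slpi, was 32.9-fold higher (12.8 to 121), with 4 UMIs in 1 cell at 0 h and 1113 UMIs in 48 of 52 cells at 12 h. Over all 71 genes of the 5 lists around the 8 genes, 20 were measured in these cells, 1 higher and 6 lower.

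In classical-monocyte-like cells, 7 of the 8 genes were far higher at 12 h than at 0 h, in both sort fractions, and Hp alone was near its 0 h level. In the reporter-negative libraries 7 of 8 passed the rule, where 2.99% of all genes measured in these cells were higher and 2.74% lower, and the median log2 ratio was 5.71 over the 8 genes and 0.01 over all genes. In the reporter-positive libraries again 7 of 8 passed, where 2.58% of genes were higher and 6.15% lower, with medians of 4.04 and -0.11. The 2 comparisons use different libraries of both times. The genes were chosen with these differences in view, so the counts describe the choice.

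S100a8 went from 13.1 CPM (5.28 to 27.0; 7 UMIs in 109 cells) to 3227 CPM (3156 to 3298; 7975 UMIs in 434 cells) in the reporter-negative classical-monocyte-like cells, and from 6.48 CPM (1 UMI in 28 cells) to 3888 CPM (3804 to 3973) in the reporter-positive ones. That is 246-fold (119 to 612) and 600-fold (108 to 23688), with ranges of 224 to 373 and 98.8 to 712 under alternative settings. S100a9, its partner in calprotectin, was not detected in either 0 h sum, which allows up to 5.62 and 19.4 CPM, and stood at 208 CPM and 259 CPM at 12 h, at least 37.1-fold and at least 13.3-fold higher. A single cell held 47.4% of the reporter-negative S100a9 UMIs of 12 h, and without it the bound was 19.4-fold. With cells thinned to 1000 UMIs, the reporter-positive bound of S100a9 was 1.96-fold. The UMIs of S100a8 per UMI of S100a9 were 15.5 (14.2 to 17.0) and 15.04 (13.8 to 16.4) in the classical-monocyte-like cells of 12 h, against 0.893 and 0.887 in neutrophil-like cells of the same libraries. The reporter-negative value moved with the class boundary and with 1 cell: it was 6.52 at resolution 0.5, 4.22 at resolution 2 and 26.6 without the cell that held most S100a9. The reporter-positive value lay between 14.3 and 20.03 under the same settings, and the neutrophil-like values lay between 0.843 and 0.970. Under each of these settings S100a8 UMIs outnumbered S100a9 UMIs in classical-monocyte-like cells and not in neutrophil-like ones.

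Lcn2 went from 13.1 to 968 CPM in the reporter-negative classical-monocyte-like cells (73.8-fold, 35.7 to 184) and from 25.9 to 1133 CPM in the reporter-positive ones (43.7-fold, 17.0 to 161). The acute phase gene Saa3 stood at 5.62 CPM at 0 h in the reporter-negative cells, 3 UMIs all from 1 cell, and at 1241 CPM at 12 h, a ratio of 221 (75.4 to 1070). In the reporter-positive cells it went from none to 1889 CPM, at least 97.1-fold higher. Saa3 was the 1 gene of the 8 higher in monocytes than in neutrophils: at 12 h in the reporter-negative library it was 154-fold higher (27.7 to 6096) in classical-monocyte-like than in neutrophil-like cells. That ratio rests on 1 neutrophil-like UMI, and it was 18.8 thinned, 32.7 with the stricter filter, 49.3 without the top cells and 65.7 as a mean over cells. Lrg1 went from none to 445 and 391 CPM, at least 79.1-fold and 20.1-fold higher, and Wfdc21 from none to 201 and 262 CPM, at least 35.8-fold and 13.5-fold higher. Under the 14 alternative settings the reporter-negative ratio of Saa3 lay between 105 and 229, that of Lcn2 between 34.9 and 122, that of Lrg1 between 15.2 and 84.4 and that of Wfdc21 between 6.22 and 55.7, each beyond 2-fold. In the reporter-positive cells the lowest values, all from thinned cells, were 16.8 for Saa3, 13.8 for Lcn2, 3.45 for Lrg1 and 2.24 for Wfdc21.

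Slpi and Hp were present in classical-monocyte-like cells before the injection. Slpi went from 229 to 787 CPM (3.44-fold, 2.87 to 4.17) in the reporter-negative and from 195 to 918 CPM (4.72-fold, 3.29 to 7.01) in the reporter-positive cells. The level of Hp was 1250 CPM (1157 to 1349) at 0 h and 1594 CPM (1545 to 1645) at 12 h in the reporter-negative cells, and 1012 and 1326 CPM in the reporter-positive ones. Its ratios of 1.28 (1.17 to 1.39) and 1.31 (1.12 to 1.55) leave out 1 in their counting intervals and stay under 2-fold. The make-up of the 8 genes differed accordingly: Hp held 82.8% of their UMIs in the reporter-negative classical-monocyte-like cells of 0 h and 18.4% at 12 h, when S100a8 held 37.2%, Saa3 14.3% and Lcn2 11.2%. The 8 genes together went from 1511 to 8671 CPM (5.74-fold, 5.35 to 6.16) and from 1238 to 10066 CPM (8.13-fold, 7.05 to 9.42).

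**Figure D2:**
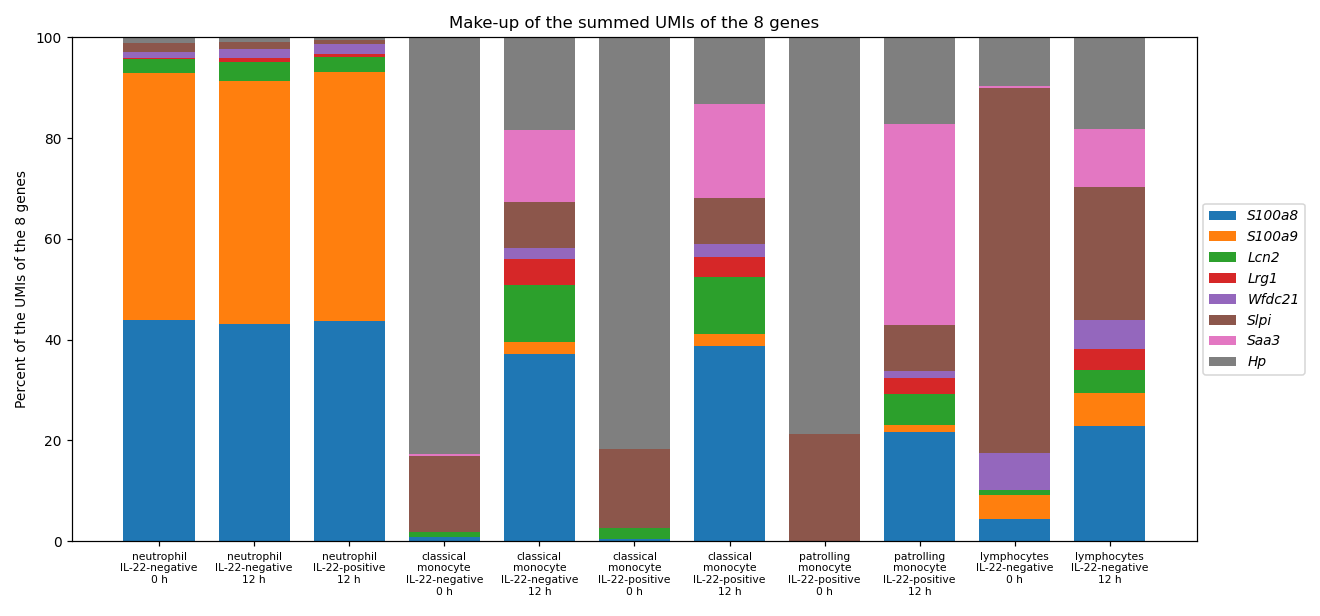
Make-up of the summed UMIs of the 8 genes (percent, stacked bars) by cell class and library. The reporter-negative patrolling-monocyte-like cells, the reporter-positive lymphocytes and the single reporter-positive neutrophil-like cell of 0 h are not drawn. Hp fills most of the 0 h bars of monocyte-like cells, S100a8 and S100a9 fill the neutrophil-like bars at both times, and Slpi fills most of the lymphocyte bar of 0 h.

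Shares of cells with a UMI were likewise higher at 12 h for S100a8, Lcn2 and Saa3 and similar for Hp, while S100a9 was found in few cells. In reporter-negative classical-monocyte-like cells S100a8 was found in 6.42% of cells at 0 h and 58.8% at 12 h, Lcn2 in 4.59% and 55.5%, Saa3 in 0.917% of cells and in 217 of 434, and Hp in 89.9% and 87.6%. Thinned to 1000 UMIs per cell, the shares were 0.917% and 42.8% for S100a8, none and 34.3% for Lcn2, 0.917% and 36.8% for Saa3, and 66.1% and 69.9% for Hp. Median depths were 4716 and 5531 UMIs per cell. S100a9 was found in 19 of 432 thinned reporter-negative cells of 12 h, against 185 for S100a8. In the reporter-positive library of 12 h it was found in 16 of 433, against 194. In lymphocytes, used as the background, S100a8 was found in 0.209% and 1.64% of cells at median depths of 1770 and 1960 UMIs, and Hp in 0.509% and 1.25%. The number of the 8 genes found in a cell was also higher: 0 of 109 reporter-negative classical-monocyte-like cells held UMIs of 5 or more at 0 h and 209 of 434 (48.2%) did at 12 h, against 0 of 28 and 221 of 438 (50.5%) in the reporter-positive libraries.

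The genes were spread unevenly over the classical-monocyte-like cells of 12 h. The 10% of reporter-negative cells with most held 100% of the S100a9 UMIs, 67.8% of the S100a8 UMIs, 59.9% of the Saa3 UMIs and 26.5% of the Hp UMIs. Of the same 434 cells, 8.99% held none of the 8 genes, close to the 9.17% of 0 h. Across 432 of these cells thinned to 1000 UMIs, which share 1 library and 1 depth, the Spearman correlation with S100a8 was 0.563 for Lcn2, 0.358 for Wfdc21, 0.354 for S100a9, 0.331 for Hp, 0.259 for Saa3 and 0.205 for Slpi, and 0.608 for Lcn2 in the reporter-positive library. In 44 neutrophil-like cells it was 0.860 for S100a9 and 0.531 for Lcn2. In sparse counts the weak values say little.

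The class consisted of 3 sub-clusters, which differed in all 8 genes at 12 h. Sub-cluster m0, with 273 cells of the reporter-negative library of 12 h, held 4869 CPM of S100a8, 1637 CPM of Saa3 and 2056 CPM of Hp. Sub-cluster m4, with 60 cells and led by interferon-response genes such as Rsad2 and Ifit3, held 1366 CPM of S100a8, 1359 CPM of Saa3 and 1612 CPM of Hp. Sub-cluster m8, with 101 cells and led by Ifitm2 and Ifitm1, was lowest at 651, 384 and 646 CPM. Slpi, at 960, 999 and 346 CPM, was as high in m4 as in m0, within the counting intervals. At 0 h Hp already stood at 1404, 1440 and 504 CPM in m0, m4 and m8, in 82, 13 and 14 cells, while S100a8 was between 10.7 and 17.6 CPM in all 3. Limited to m0, the S100a8 ratio was 373, and m8 held no cell of the reporter-positive library of 12 h.

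**Figure D3:**
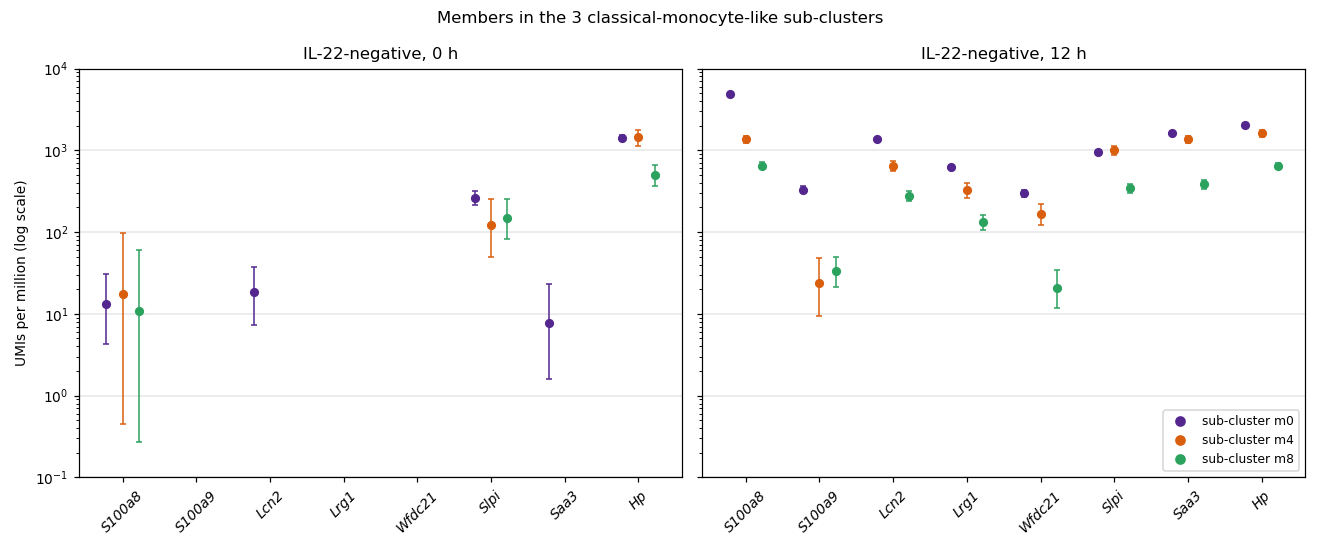
Level of each gene (CPM, log axis) in the 3 classical-monocyte-like sub-clusters of the reporter-negative libraries of 0 h and 12 h, with 95% Poisson intervals; a gene with no UMI in a sub-cluster has no point. At 12 h sub-cluster m8 lies lowest for 7 genes and m0 lies highest for every gene but Slpi, while Hp and Slpi are present at 0 h.

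Markers of other cells were followed in the same sums. The 12 neutrophil markers summed to 133 and 238 CPM in the reporter-negative classical-monocyte-like cells of 0 h and 12 h and to 156 and 353 CPM in the reporter-positive ones, against 12524 to 25231 CPM in neutrophil-like sums of more than 1 cell. Ly6g, Mrgpra2b and Stfa2l1 were at 0 in the reporter-negative classical-monocyte-like cells of both times. Leaving out cells with a UMI of Retnlg, Ly6g, Cxcr2, Stfa2l1 or Mrgpra2b kept 427 of the 434 reporter-negative cells of 12 h. In the cells kept, the 12 h to 0 h ratio was 227 for S100a8, 71.6 for Lcn2, 219 for Saa3 and at least 36.4 for S100a9. So few cells were left out that these ratios could move little. The part of neutrophil RNA in the cells kept was not tested. The 10 hepatocyte markers summed to 95.6, 104, 117 and 127 CPM across the 4 classical-monocyte-like sums. The 10 classical-monocyte markers themselves summed to 10363, 8876, 11276 and 10124 CPM.

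Between the 2 sort fractions at 12 h, no gene was called in these cells, and for 5 of the 8 genes the direction depended on the setting. Reporter-positive classical-monocyte-like cells had 1.52 times the Saa3 (1.45 to 1.60), 0.878 times the Lrg1 and 0.832 times the Hp (0.793 to 0.874) of reporter-negative ones, and these 3 kept their side of 1 under the 14 settings (1.25 to 1.86, 0.666 to 0.987 and 0.626 to 0.923). The ratio of S100a8 was 1.21 but lay between 0.781 and 1.49 under the other settings, with doublets kept (0.883), the stricter filter (0.863) and resolution 2 (0.781) below 1. That of S100a9 was 1.24, but 0.401 at resolution 0.5 and 0.208 at resolution 2, both beyond 2-fold in the other direction. By the 2-fold rule 0 of 8 genes differed, where 2.16% of genes were higher and 9.79% lower. Under other settings the ratio of the 8 genes together lay between 0.834 and 1.39, so no direction can be given for it. The plot of ratios shows the 2 fractions side by side.

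**Figure D4:**
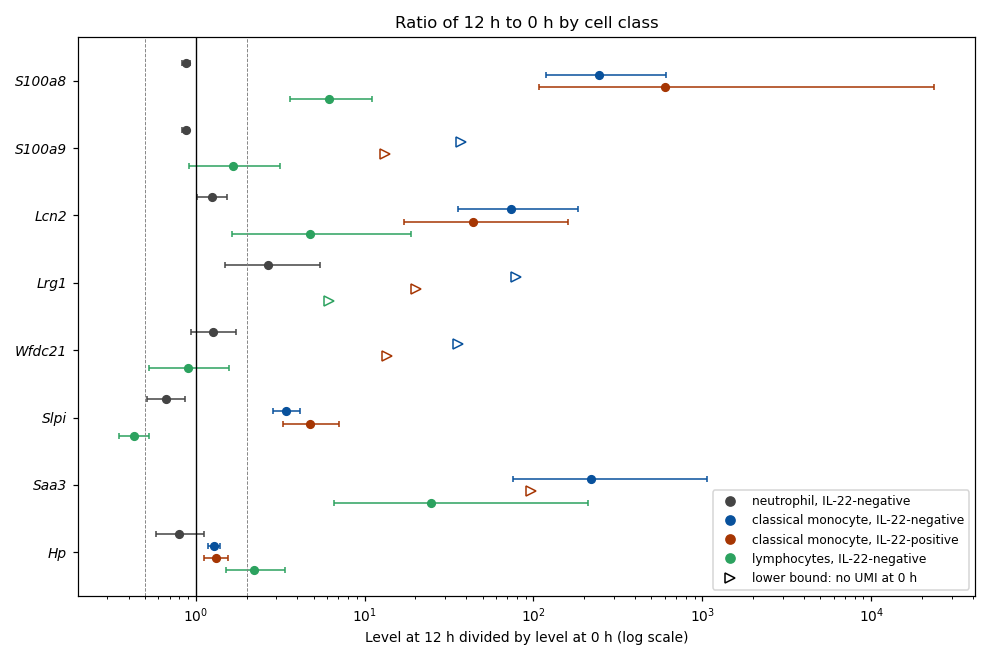
Ratio of the 12 h to the 0 h level (log axis) for each gene in neutrophil-like cells, classical-monocyte-like cells of both fractions and lymphocytes, with exact 95% counting intervals; open triangles are lower bounds where no UMI was found at 0 h, and dashed lines mark 2-fold. For 7 genes both classical-monocyte-like points lie beyond 2-fold, while those of Hp and the neutrophil-like points other than Lrg1 lie within it.

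Of 71 listed genes around the 8, 32 were measured in the reporter-negative classical-monocyte-like cells, with 2 higher and 3 lower, beside the 2.99% and 2.74% of all genes given above. Mmp8, neutrophil collagenase, went from 37.5 to 172 CPM (4.59-fold, 2.93 to 7.59), and Cd14, a co-receptor of Toll-like receptor 4, from 103 to 229 CPM (2.22-fold, 1.68 to 2.98). Pglyrp1, a peptidoglycan-binding protein (0.464-fold), Cd177, a neutrophil surface protein (0.454-fold), and the transcription factor gene Cebpa (0.496-fold, and 0.522-fold without the top cell of each sum) were lower. In the reporter-positive cells 30 were measured, with 4 higher and 2 lower, beside 2.58% and 6.15% of all genes: Mmp8 again (2.44-fold, 1.38 to 4.77), the receptor gene Tlr2 (2.58-fold), Cebpb, which encodes a C/EBP factor of inflammation (3.25-fold, 2.11 to 5.28), and Nfkbiz, a modulator of NF-kappaB (2.13-fold), were higher. Lyz2 (0.363-fold) and Pglyrp1 (0.395-fold) were lower. Whether the fractions differ in Cebpb or Tlr2 was not tested.

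Patrolling-monocyte-like cells were few in the reporter-negative libraries, which limits a comparison of the fractions. In the reporter-negative libraries, with 25 and 39 cells, S100a8, S100a9, Lcn2, Lrg1 and Wfdc21 were at 0 at 0 h and held between 1 and 7 UMIs at 12 h. Only Hp reached 20 UMIs, at 492 and 461 CPM (0.937-fold, 0.586 to 1.51), and 0 of 1 gene was called, where 5.05% of genes were higher and 3.42% lower. In the reporter-positive libraries, with 81 and 203 cells, 5 of the 6 genes with enough UMIs were higher at 12 h, where 4.58% of genes were higher and 3.15% lower. Saa3 went from none to 723 CPM (at least 64.7-fold), S100a8 from none to 392 CPM (190 UMIs, at least 35.1-fold), Lcn2 from none to 114 CPM (at least 10.2-fold), Lrg1 from none to 55.8 CPM (at least 4.99-fold) and Slpi from 74.5 to 163 CPM (2.19-fold, 1.33 to 3.78). Hp stood at 276 and 310 CPM (1.12-fold, 0.846 to 1.51). None of these reporter-positive ratios was run with other filters, resolutions or thinning. The S100a8 UMIs came from 13.8% of the 203 cells and those of Saa3 from 27.6%. The 10 classical markers summed to 7740 and 7082 CPM in the same reporter-positive sums and the 12 patrolling markers to 5222 and 3644 CPM, and the part of classical monocytes within this class was not tested.

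Within the reporter-negative library of 12 h, 8 of 8 genes were called higher in classical-monocyte-like than in patrolling-monocyte-like cells, where 2.9% of genes were higher and 8.15% lower. The ratio was 97.9 (33.5 to 475) for S100a8, 23.9 for Slpi, 22.6 (9.67 to 69.6) for Saa3, 12.6 for Lcn2 and 3.46 (2.55 to 4.80) for Hp. These sizes depended on the patrolling-monocyte-like class of 39 cells: S100a8 lay between 8.18 and 227 under the 14 settings, Slpi between 4.17 and 33.9, Lcn2 between 11.9 and 66.5 and Hp between 2.88 and 4.49. Wfdc21 (18.3-fold, and 1.998-fold thinned) and Saa3 fell below 2-fold in 1 setting each. The interval and UMI parts of the rule were not applied again under the other settings, so the number of calls lost is not known. At Leiden resolution 0.5 Saa3 was 1.09-fold and the 8 genes together 3.54-fold higher in place of 11.6-fold (9.15 to 14.96). Neutrophil-like cells of the same library stood above classical-monocyte-like ones in 6 of 8 genes, where 5.49% of genes were higher and 11.7% lower. S100a9 had the widest gap at 551-fold (505 to 603), followed by S100a8 at 31.8-fold (30.9 to 32.7), Wfdc21 at 20.1-fold, Lcn2 at 9.39-fold, Lrg1 at 4.54-fold and Slpi at 4.15-fold. The S100a9 ratio moved most with the classes: it was 140 at resolution 2, 245 at resolution 0.5, 346 against the largest cluster and 1026 without the top cell of each sum. Hp was 1.504-fold higher (1.33 to 1.69) and so was the gene most evenly shared between the 2 classes.

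Lymphocytes were used as the background level, which did not behave alike for all 8 genes. At 0 h and 12 h reporter-negative lymphocytes held 1.22 and 7.43 CPM of S100a8, 1.29 and 2.15 CPM of S100a9, 0.304 and 1.45 CPM of Lcn2, 0.152 and 3.77 CPM of Saa3, and 2.66 and 5.92 CPM of Hp. By the 2-fold rule 5 of the 8 genes were higher at 12 h, where 0.847% of genes were higher and 2.93% lower: S100a8 (6.11-fold, 3.62 to 11.02), Lcn2 (4.78-fold), Lrg1 (none to 1.39 CPM, at least 6.11-fold), Saa3 (24.8-fold, 6.60 to 209) and Hp (2.23-fold, 1.503 to 3.37). With cells thinned to 1000 UMIs the Hp ratio was 1.40. Slpi was lower, at 19.97 and 8.59 CPM (0.430-fold, 0.349 to 0.528), while the whole reporter-negative libraries held 2552 and 10019 Slpi UMIs. The whole reporter-negative libraries held 3102 and 21967 UMIs of S100a8 and 10 and 3874 UMIs of Saa3 at 0 h and 12 h, while the neutrophil markers summed to 127 and 112 CPM and the hepatocyte markers to 21.8 and 28.8 CPM in lymphocytes. The part of free RNA in the lymphocyte level was not tested. The UMIs of S100a8 per UMI of S100a9 in lymphocytes were 0.941 (0.445 to 1.98) at 0 h and 3.46 (2.38 to 5.13) at 12 h.

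Set against this background within the reporter-negative library of 12 h, all 8 genes were higher in classical-monocyte-like cells, where 14.3% of genes were higher and 18.4% lower, from 91.7-fold (Slpi) and 97.1-fold (S100a9) to 435-fold (S100a8) and 667-fold (Lcn2). Neutrophil-like cells exceeded lymphocytes in 7 of 8 genes, where 6.13% of genes were higher and 7.98% lower, with S100a9 at 53535-fold and S100a8 at 13813-fold. At 0 h, classical-monocyte-like cells stood above lymphocytes in 3 of the 4 genes with at least 20 UMIs, where 10.7% of genes were higher and 13.8% lower: Hp (471-fold, 335 to 682), Slpi (11.46-fold) and S100a8 (10.8-fold, on 7 UMIs). S100a9 and Wfdc21 were not detected in classical-monocyte-like cells of 0 h, where their ratios to lymphocytes are at most 4.36 and 2.74. Wfdc21 differed among lymphocytes as well: B-cell-like cells held 6.82 and 7.14 CPM at 0 h and 12 h, T-cell-like cells none and 0.612 CPM. B-cell-like cells were at least 16.6-fold higher at 0 h and 11.7-fold higher at 12 h. Wfdc21 was the 1 gene called of the 3 (0 h) and 6 (12 h) with at least 20 UMIs, where 8.3% and 9.15% of genes were higher and 16.3% and 14.6% lower.

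Other leukocytes carried some members of the group. Plasma-cell-like cells, which secrete antibody, held 1832 CPM of Slpi at 0 h (1748 to 1920; 97 cells) and 3615 CPM at 12 h (3524 to 3707; 141 cells) in the reporter-negative libraries, 1.97-fold more and just under the 2-fold that 3.56% of genes passed upward there (3.41% downward). The cells were uneven: 56.7% and 46.1% held a Slpi UMI, the 10% of cells with most held 75.8% and 87.0% of the UMIs, and the median cell went from 1.30 to 0 UMIs per 10000, against the direction of the sum. Without the top cell of each sum the ratio was 2.15. Plasma-cell-like cells held 69.9% and 60.7% of all Slpi UMIs of those libraries, against 2 or fewer UMIs of each other gene. Plasmacytoid-dendritic-cell-like cells held 208 and 351 CPM of Slpi (1.69-fold), and basophil-or-mast-cell-like cells 598 CPM at 12 h. Macrophage-like cells marked by Arg1 and Pf4 held 8032 CPM of Saa3 (721 UMIs in 33 cells, 30.3% of them with a UMI) in the reporter-positive library of 12 h and 538 CPM in the reporter-negative one, with 0 S100a9 UMIs in both. The 22 reporter-negative cells also held 32 UMIs of S100a8, 20 of Lcn2 and 17 of Lrg1. They held 36 of Slpi and 42 of Hp. The reporter-positive cells held 6, 6, 7, 43 and 15 UMIs of these genes in that order. Conventional-dendritic-cell-like cells of the reporter-negative libraries held 6.95 CPM of Hp at 0 h (2 UMIs in 53 cells) and 55.0 CPM at 12 h (85 UMIs in 273 cells). This ratio of 7.91 thus rests on 2 UMIs at 0 h and was not run with other filters, resolutions or thinning. Hp was the 1 of 3 genes called there, where 1.79% of genes were higher and 3.58% lower.

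Counted over whole libraries, the classes took different parts of each gene. At 12 h in the reporter-negative library, neutrophil-like cells held 93.3% of the S100a9 UMIs and 58.1% of the S100a8 UMIs, and classical-monocyte-like cells 3.36% and 36.3%. In the reporter-positive library of 12 h these shares were 91.9% and 38.5% for neutrophil-like and 7.76% and 55.2% for classical-monocyte-like cells. Classical-monocyte-like cells held most of the Saa3 UMIs (79.2% and 52.3%), the Lcn2 UMIs (62.8% and 76.7%), the Lrg1 UMIs (68.3% and 71.3%) and the Hp UMIs (71.6% and 65.4%) of the 12 h libraries. In the reporter-positive library of 12 h, 34.9% of cells were unnamed. They held 2557 of its 7607 Saa3 UMIs, 1229 of 4266 Hp UMIs and 1291 of 3463 Slpi UMIs. Their part was smaller for Lcn2 (260 of 3107 UMIs) and S100a8 (734 of 14827 UMIs). At 0 h in the reporter-negative library, 43.6% of the S100a8 UMIs and 41.7% of the S100a9 UMIs lay in unnamed cells, of which 1350 and 1392 UMIs were in a single cell with 9071 UMIs in all. That cell is in no class of the main setting and enters no ratio made with those classes. Alternative settings that redraw the classes can include it, so it may enter the ranges given under such settings.

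Over 33 sums of a library and class with at least 20 cells, the genes whose levels followed each member most closely were ranked by Pearson correlation of log2(CPM + 10) among 3828 genes. The sums share libraries, so the values are a description. Il1r2 and Retnlg were markers that named the neutrophil-like class, and Vcan and Chil3 markers that named the classical-monocyte-like class. Their likeness is thus partly set by the naming. The only neutrophil-like sums among the 33 were those of 52 and 22 cells, so correlations with neutrophil genes rest largely on these. S100a8 and Lcn2 were most like Mmp8 (0.947 and 0.951), and Il1r2, a decoy receptor of interleukin-1, and Slfn4 followed in both. S100a9 was most like Arg2 (0.949), Retnlg (0.943) and Camp (0.942). Lrg1 was most like Il1r2 (0.910), and Wfdc21 was most like Slfn4 (0.903). Hp was most like Msrb1 (0.938), Gda (0.934) and Chil3 (0.931), Saa3 most like Vcan (0.869), and Slpi most like Ckap4 (0.794). Among the 8 genes the closest pair was S100a8 and Lcn2 (0.969), and the least alike was S100a9 and Saa3 (0.101).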

How the data were processed

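The deposited files are raw UMI counts per gene and barcode, made by the authors with 10x Genomics 3' v2 chemistry. Cell Ranger 4.0.0 is named per the file headers, and Cell Ranger 3.0.1 and mm10 per the submitters' processing notes; what accounts for the difference is not given in the sources used here. The 8 genes, the lists and the comparisons were chosen with earlier results of these data known. The filter required 200 detected genes or more and a mitochondrial share below 10%. Scrublet's automatic threshold failed (0 to 2 calls per library), so barcodes scoring above 0.25, a value set after seeing the scores, were removed (250, 237, 0 and 9).

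Cells were clustered on 2000 variable genes without the 8 members (scanpy 1.11.5, 30 principal components, 15 neighbours, Leiden resolution 1; myeloid cells again with 20 components) into 37 clusters, named from 20 marker lists. Levels are CPM of the UMIs summed over the cells of a class in a library, with exact 95% Poisson intervals; ratios have exact conditional binomial intervals, and sums of 0 were bounded at 3 UMIs per sum. A ratio was called at 2-fold or more with an interval without 1 and at least 20 UMIs. With 1 library per group there was no test between groups. Kept UMIs per library were 17790922, 28575455, 1134292 and 4985441. On simulated Poisson counts with 434 and 109 cells the call recovered 97.7% of the changes (6393 genes). With 52 and 9 cells it recovered 98.2% (873 genes). It also called 1.77% and 5.24% of the unchanged genes. Only these cell numbers came from the classical-monocyte-like and neutrophil-like classes. The gene profile was that of the whole reporter-negative library of 0 h, and the depth was the mean of whole libraries. All changes had the same fold size and no cell was uneven, so these rates need not hold in the classes. Named genes beside the 8 were up to 5 highest and 5 lowest called genes of 5 pathway lists (71 genes) per 12 h to 0 h comparison, and the 3 genes most like each member.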

Additional observations from a re-analysis of the deposited data

Results flagged for a closer look

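Barcodes outside the analysed cells held the same genes. Among the 237 barcodes removed as doublets from the reporter-negative library of 12 h (median 4160 UMIs), levels were higher than among the 250 removed at 0 h (median 3238 UMIs). S100a8 stood at 328.8 against 1.11 CPM, Hp at 196.4 against 37.75 CPM, Slpi at 108.1 against 35.53 CPM and Wfdc21 at 25.09 against 7.772 CPM. Saa3 stood at 112.5 CPM, Lcn2 at 100.4 CPM, S100a9 at 71.81 CPM and Lrg1 at 35.47 CPM at 12 h, with no UMI of these 4 genes at 0 h. Among barcodes that failed the filter on genes or mitochondrial UMIs, Hp stood at 148.7 CPM in the 132 barcodes of 12 h and at 39.99 CPM in the 254 barcodes of 0 h.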

How the results depend on the processing

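No paired analysis was possible because each group has 1 library. Of 105 values of the 8 genes together under 14 alternatives (2 of them added after seeing the data), 63 stayed within the counting interval, 42 moved and 0 reversed a called value; the cause was not tested. The neutrophil-like 12 h to 0 h ratio, 0.888, was 0.837 with doublets kept, 0.970 with a stricter filter, 0.920 and 1.09 at resolutions 0.5 and 2, 0.817 with the members among the variable genes, 1.36 as a mean over cells, 0.942 over a total without members, ribosomal and mitochondrial genes, 1.01 with median-ratio scaling, 0.998 without the top cell of each sum and 1.22 thinned. The reporter-negative classical-monocyte-like ratio, 5.74, was 6.32 with the stricter filter, 6.70 at resolution 2 and 7.12 in the largest cluster, and the reporter-positive one, 8.13, was 6.60 and 6.76 at resolutions 0.5 and 2 and 6.17 as a mean over cells. The patrolling-monocyte-like ratio, 1.21, was 3.47 at resolution 0.5.

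Between fractions in classical-monocyte-like cells, 1.16 became 0.922 with doublets kept, 0.868 with the stricter filter, 1.08 and 0.834 at resolutions 0.5 and 2, 1.39 with members among the variable genes, 1.04 as a mean over cells, 1.20 without the top cells, 1.06 thinned and 0.995 in the largest cluster. Neutrophil-like over classical-monocyte-like, 27.5, became 23.4, 29.5, 26.1, 29.0 and 28.9 under the doublet, resolution (0.5, 2), variable-gene and mean-over-cells alternatives, 33.1 and 32.1 under the other total and scaling, 28.4 without the top cells, 30.8 thinned, 26.8 without hepatocyte-transcript cells, 19.6 against the largest cluster and 28.4 without classical cells with a neutrophil-defining UMI. Classical-monocyte-like over patrolling-monocyte-like, 11.6, became 17.6 with doublets kept, 19.3 with the stricter filter, 3.54 at resolution 0.5 and 16.3 in the largest cluster. The median-ratio scaling shifted all genes by -0.19 (log2) in neutrophil-like cells, -0.18 in lymphocytes and -0.22 between neutrophil-like and classical-monocyte-like cells. The 9 neutrophil-like cells of 0 h limit the precision of every ratio that uses them.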
